A study of Mus musculus with 32 samples.

Results

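The CpG cytosines of the mitochondrial genome were examined in retinal DNA of mice that had flown in space and of mice kept on the ground. The members were the CpG cytosines of the mitochondrial sequence, with the strands kept apart, that had at least 10 reads in each of 16 libraries. There were 17 of them, among 1375451 cytosines of the whole genome that met the same minimum. Of the 17, 8 lay on the plus strand and 9 on the minus strand, and they made up 2.96% of the 574 CpG cytosines in the 16299 bases of mitochondrial DNA.

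The method was reduced representation bisulfite sequencing (RRBS). The enzyme MspI cuts the DNA at CCGG, the fragments are treated with bisulfite, and a cytosine that is still read as C is counted as methylated. The 8 spaceflight libraries came from female C57 BL/6J mice that were 16 weeks old at the start, spent 37 days in flight and were 21 weeks old by their labels. The 8 ground control libraries came from female mice of that strain and labelled age, kept on the ground in the same type of housing. Each library was made from 1 retina of 1 mouse, with 5 right and 3 left eyes in each group. The flown mice were killed and frozen in orbit, and by the methods the ground mice were handled alike and in parallel, with the eyes of both groups taken out once the carcasses were back. RNA of the same study was available from 9 spaceflight and 7 ground control libraries.

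Mitochondrial DNA is a small circle carried in many copies per cell, and its genes encode subunits of the respiratory chain together with the ribosomal and transfer RNAs needed to translate them. Photoreceptors are rich in mitochondria. The circle is not packed into nucleosomes and carries little or no CpG methylation in most reports, so it is often read as an internal measure of bisulfite conversion. The percent of its cytosines called methylated is an upper bound on the percent that escaped conversion. It is an estimate of that percent only as far as the sequence is not methylated.

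The mitochondrial sequence holds 11 CCGG sites, and only neighbouring sites that lie close together give fragments short enough to be sequenced in number. The members fell in 2 of the 37 annotated genes, 9 in ND1, which encodes a subunit of complex I, and 8 in COX1, which encodes the catalytic subunit of complex IV. None lay in the other genes or outside genes. The fragments that carried them are printed here because the position of a cytosine on its fragment turned out to separate the values. They are given as the plus strand of GRCm38 (RefSeq), 5′ to 3′, with the CpG dinucleotides in capitals and the CCGG sites at both ends included. The ND1 fragment is MT:3332-3403, 68 bp from cut site to cut site. COX1 fragment 1 is MT:6112-6277 (162 bp) and COX1 fragment 2 is MT:6274-6391 (114 bp).
ND1 fragment: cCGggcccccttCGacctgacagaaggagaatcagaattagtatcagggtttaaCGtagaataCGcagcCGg
COX1 fragment 1: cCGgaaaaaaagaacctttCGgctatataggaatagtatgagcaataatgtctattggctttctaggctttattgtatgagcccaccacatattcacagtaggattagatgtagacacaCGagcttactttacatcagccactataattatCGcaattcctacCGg
COX1 fragment 2: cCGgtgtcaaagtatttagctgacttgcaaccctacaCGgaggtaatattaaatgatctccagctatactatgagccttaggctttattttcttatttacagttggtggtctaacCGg
The remaining COX1 members, 5726 on the plus strand and 6114 on the minus strand, are the read starts of a fragment of 387 bp, which is too long to be read well.

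Spaceflight libraries held 61652709 to 80242659 reads summed over CpG cytosines, and ground control libraries 59572205 to 105298542; a read is counted at each CpG it covers. Of these, 24607 to 63365 reads in spaceflight libraries and 48663 to 152203 reads in ground control libraries lay on mitochondrial DNA, and at least 99.79% of them on the 17 members in every library. In RNA of the same groups the lens crystallin Cryaa ranged over 0.107 to 9594 FPKM in spaceflight and 1.82 to 15011 FPKM in ground control libraries, so that the lens signal varied widely within both groups. Rpe65, of the pigment epithelium, ranged over 52.4 to 400 FPKM in spaceflight and 59.2 to 572 FPKM in ground control libraries. Krt1, of epidermis and cornea, reached 274 FPKM in spaceflight (median 1.36) and 1.95 FPKM in ground control libraries (median 1.48). The part of these tissues in the values that follow was not tested.

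Mitochondrial DNA took 0.0399% to 0.0795% of the reads in spaceflight libraries (median 0.0677%), and 0.0634% to 0.221% in ground control libraries (median 0.0788%). M37 at 0.221% and M39 at 0.206% stood apart within ground control, where the other libraries lay at or below 0.113%, and 4 of 8 spaceflight libraries lay below every ground control library. The means were 0.0654% ± 0.0140 in spaceflight and 0.112% ± 0.0646 in ground control libraries (SD, n = 8 each), a difference of -0.0465 percentage points (95% interval -0.0978 to -0.000776; two-sided exact permutation test, p = 0.0427, and 0.0783 after Benjamini-Hochberg adjustment over 22 values compared between the groups). Without M37 and M39 the difference was -0.0127 points (exact permutation test, p = 0.173), so that those libraries carried most of it. How well this share follows the amount of mitochondrial DNA was not tested. In DNA of a whole tissue, a lower amount could not tell fewer mitochondrial genomes per cell from fewer cells rich in mitochondria.

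**Figure D1:**
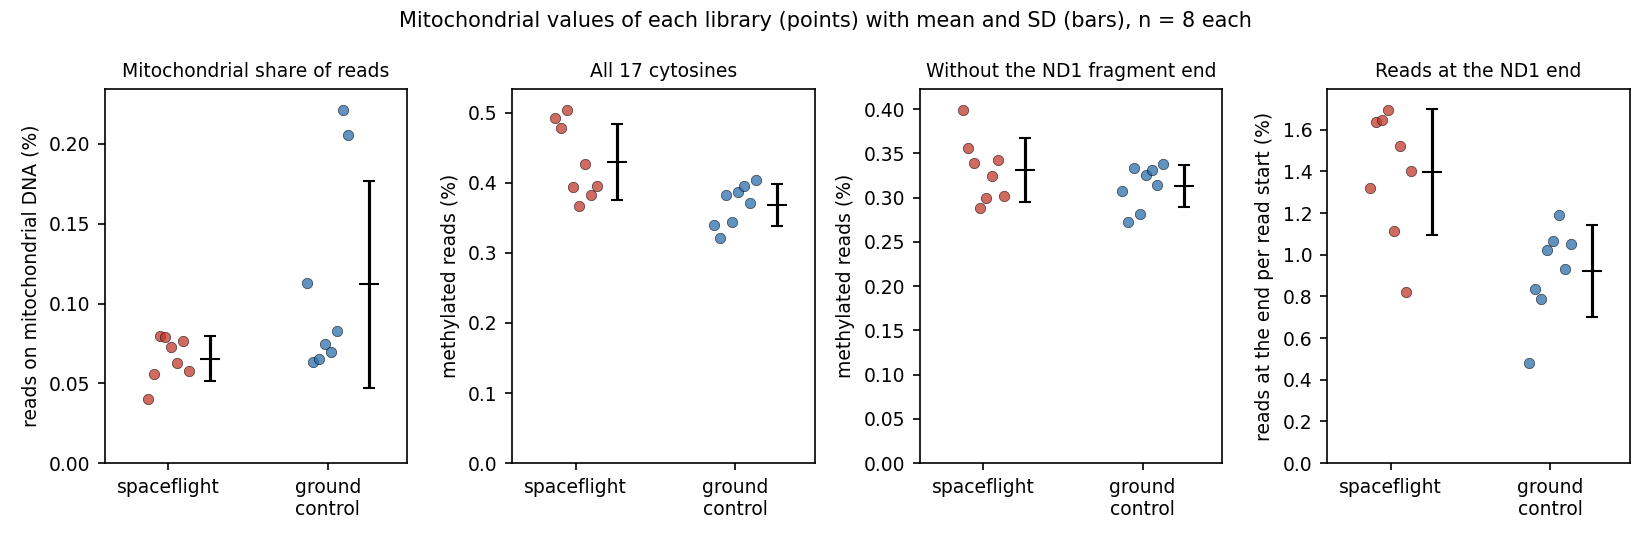
Each panel plots 1 value per library (points), spaceflight left of ground control, with the mean and SD as a bar beside the points (n = 8 each). The panels show the mitochondrial share of reads, the percent of methylated reads over the 17 members, the same without the cytosine at the end of the ND1 fragment, and the reads at that end as a percent of the reads at the start of the fragment. M37 and M39 are the highest ground control points of the first panel, and the difference between the groups in the second panel, 0.430% against 0.368%, is smaller in the third, 0.331% against 0.313%.

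Over the 17 members 4095 of 1047278 reads were methylated, which is 0.391%. The percent per library was 0.367% to 0.503% in spaceflight (median 0.411%) and 0.321% to 0.404% in ground control libraries (median 0.377%). Of the spaceflight libraries, 4 of 8 lay above every ground control library, and the rest overlapped with them. The means were 0.430% ± 0.0537 in spaceflight and 0.368% ± 0.0300 in ground control libraries (SD, n = 8 each), a difference of 0.0619 points (95% interval 0.0142 to 0.109; exact permutation test, p = 0.0135, adjusted 0.0297).

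On the plus strand the mean was 0.545% ± 0.0648 in spaceflight and 0.451% ± 0.0578 in ground control libraries (SD, n = 8 each, exact permutation test, p = 0.00606, and 0.0121 adjusted over the 2 strands). On the minus strand it was 0.336% ± 0.0553 in spaceflight and 0.311% ± 0.0237 in ground control libraries (SD, n = 8 each, exact permutation test, p = 0.271). The difference between the strands was 0.208 ± 0.0777 points in spaceflight and 0.140 ± 0.0573 points in ground control libraries, which was not larger than the spread (SD, n = 8 each, difference 0.0686, 95% interval -0.00489 to 0.142, exact permutation test, p = 0.0664), so that a group difference particular to one strand was not shown. Within libraries the plus strand exceeded the minus strand in 16 of 16, by 0.174 points on average (SD 0.0748; exact test over sign changes, p = 3.05e-05, the smallest that 16 libraries can give).

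The strand difference rested on a single cytosine. At position 3401 of the plus strand, 751 of 801 reads were methylated, or 93.8%, against 0.205% to 0.394% at the 14 members with more than 10000 reads in all. Its opposite strand, the cytosine at 3402 on the minus strand of the same CpG, was at 0.297%. The cytosine at 3401 had 24 to 107 reads per library and was 83.3% to 97.98% methylated in spaceflight (median 94.9%) and 84.8% to 100% in ground control libraries (median 93.7%). It held 0.0765% of the reads of the members but 18.3% of their methylated reads.

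Without that cytosine the strands no longer differed beyond the spread between libraries: the plus strand less the minus strand was -0.00203 points on average (SD 0.0566), above 0 in 9 and below it in 7 of 16 libraries (exact test over sign changes, p = 0.887). The group difference shrank as well. Over the other 16 members the mean was 0.331% ± 0.0361 in spaceflight and 0.313% ± 0.0242 in ground control libraries (SD, n = 8 each), a difference of 0.0184 points (95% interval -0.0140 to 0.0516; exact permutation test, p = 0.257). On the plus strand alone it was 0.327% in spaceflight and 0.316% in ground control libraries (exact permutation test, p = 0.612).

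**Figure D2:**
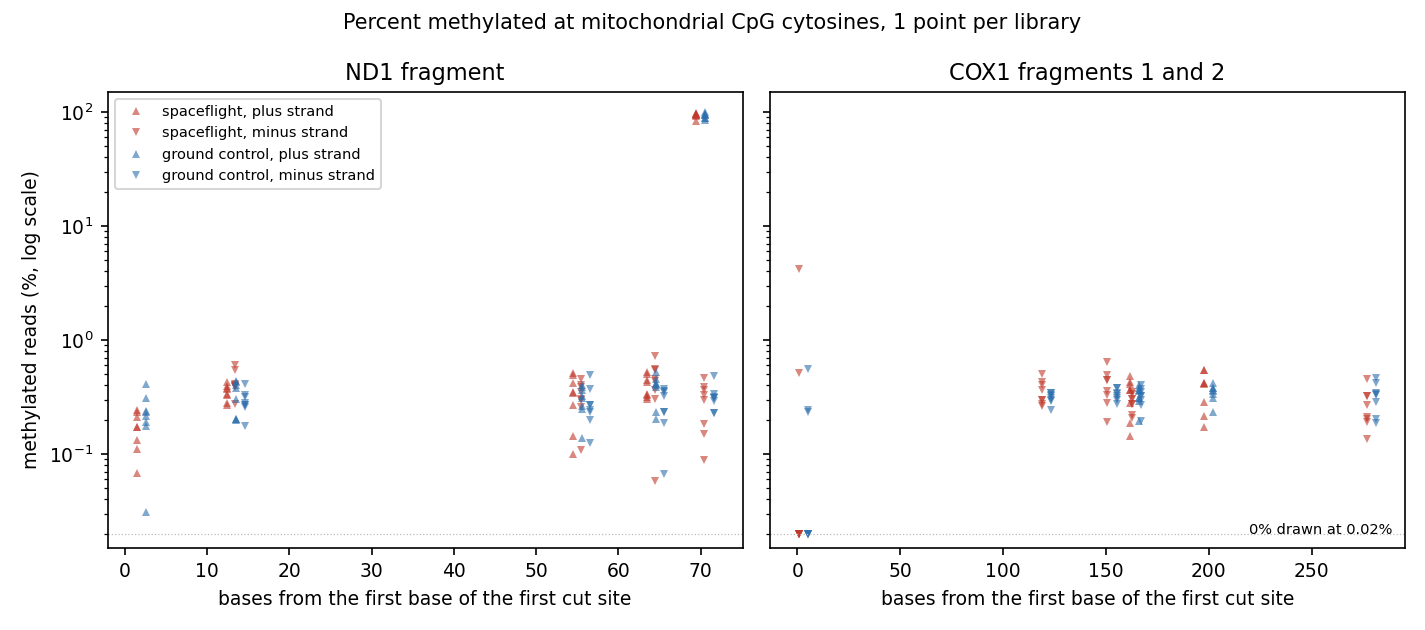
The percent of methylated reads (log axis) is plotted against the distance in bases from the first base of the first cut site, 1 point per member and library, for the ND1 fragment (left) and for COX1 fragments 1 and 2 (right). Upward triangles are plus-strand and downward triangles minus-strand cytosines, spaceflight is drawn just left of ground control, and a value of 0% is drawn at 0.02%. All points of the cytosine at the end of the ND1 fragment lie above 80%, and those of the other well-read members lie below 1%.

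The cytosine at 3401 is where a plus-strand read that starts at 3333 meets the far end of its fragment, at base 69 of the read with 3333 as base 1. The mirror position had the same pattern. The minus-strand cytosine at 3334, where reads that start at 3402 reach their end, narrowly missed the minimum, with 8 to 68 reads and at least 10 in 15 of 16 libraries. It was 73.9% to 100% methylated in spaceflight and 73.5% to 100% in ground control libraries, with 406 of 462 reads methylated in all, while the cytosine opposite it at 3333 had the lowest percentage of the well-read members. The remaining mitochondrial cytosines outside the 17 had at most 19 reads in a library, and 5 of their 918 reads were methylated. The CCGG site at 3400 also begins the next fragment, 2325 bp long, whose plus-strand reads start at 3401. Likewise a fragment of 813 bp ends at the site at 3332, and its minus-strand reads start at 3334. The first CpG beyond the ND1 fragment, at 3410 of the plus strand, had 26 reads and 0 methylated ones, which allows up to 11.5%. A read that starts at 3401 can cover 3410, and 50 reads at 3401 were unmethylated. How many reads at 3401 or 3334 were of these longer fragments was not tested.

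Few reads were listed at the end at all. In spaceflight libraries the reads at 3401 were 0.821% to 1.69% of the reads at 3333 (median 1.46%), and in ground control libraries 0.480% to 1.19% (median 0.976%). Of the spaceflight libraries, 6 of 8 lay above every ground control library. The means were 1.39% ± 0.302 in spaceflight and 0.921% ± 0.221 in ground control libraries (SD, n = 8 each, exact permutation test, p = 0.00435, adjusted 0.0219), and in right eyes alone the difference did not pass (0.36 points, p = 0.103). The percent methylated at 3401 itself did not differ beyond the spread, at 93.9% ± 4.56 in spaceflight and 93.0% ± 5.01 in ground control libraries (SD, n = 8 each; difference 0.881 points, 95% interval -4.30 to 5.91, exact permutation test, p = 0.714). The cytosine therefore made up 22.6% ± 6.67 of the methylated mitochondrial reads in spaceflight and 14.9% ± 2.72 in ground control libraries (SD, n = 8 each, exact permutation test, p = 0.00948, adjusted 0.0258), which in right eyes alone did not pass either (exact permutation test, p = 0.127).

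A further measure of how far reads extended moved in the same direction. The last inner cytosine before the end, at 3395 of the plus strand and base 63 of the read, had 93.5% ± 3.0 of the reads of its neighbour at 3386 in spaceflight and 88.6% ± 3.95 in ground control libraries (SD, n = 8 each, exact permutation test, p = 0.00497, adjusted 0.0219). The part of this in the reads at 3401 was not tested.

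Nuclear fragments of the same geometry were then read in the same way, which was decided after the value at 3401 had been seen. The fragments had a next cut site at least 1000 bp away and an opposite strand at most 5% methylated, with at least 10 reads on that strand and at the read start in every library. Among 312 ends of fragments of 66 to 70 bp, the end cytosines were 89.7% methylated over 2511 reads, and the same CpGs on the opposite strand, which the choice held at or below 5%, were at 1.17%. The reads at these ends were 1.15% of those at the starts. High percentages were seen from 56 to 70 bp, with 89.0% at 56 to 60 bp and 91.4% at 61 to 65 bp. At 71 to 75 bp the ends held 0.0495% of the start reads and were 0.833% methylated, and at 41 to 55 bp they held at most 0.16% of them and were 10.8% to 28.4% methylated.

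**Figure D3:**
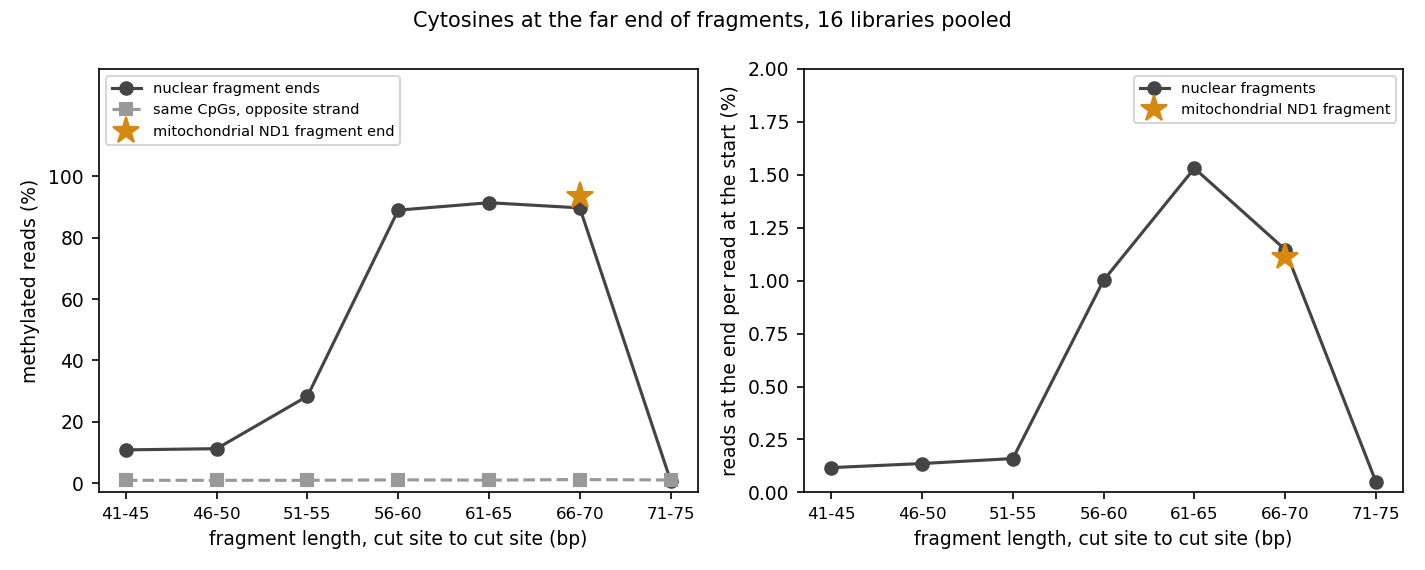
Left, percent of methylated reads at the far end of nuclear fragments (circles) and at the same CpGs on the opposite strand (squares), by fragment length in bp; right, reads at the end as a percent of reads at the start. Libraries are pooled, and the star is the mitochondrial ND1 fragment of 68 bp. The star lies beside the nuclear ends of 66 to 70 bp in both panels.

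The nuclear ends of 66 to 70 bp varied between libraries as the mitochondrial one did. Their reads were 1.33% ± 0.250 of the start reads in spaceflight and 0.942% ± 0.206 in ground control libraries (SD, n = 8 each, exact permutation test, p = 0.00233, adjusted 0.0219). Across the 16 libraries this share and that at 3401 had a Pearson's r of 0.858 (permutation p = 3.00e-05, adjusted 6.00e-05 over 2 relations) and a Spearman's rank correlation of 0.856 (permutation p = 0.000130). The ground control library M31 was lowest in both shares, and without it the differences between the groups were 0.411 points for the mitochondrial and 0.328 points for the nuclear ends (exact permutation tests, p = 0.00886 and 0.00559). Without M24 and M31, the libraries farthest from the median, r was 0.752. Within the groups r was 0.645 in spaceflight (permutation p = 0.0841, n = 8) and 0.887 in ground control libraries (exact permutation p = 0.00781, n = 8). What places methylated calls at the ends of short fragments was not tested.

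**Figure D4:**
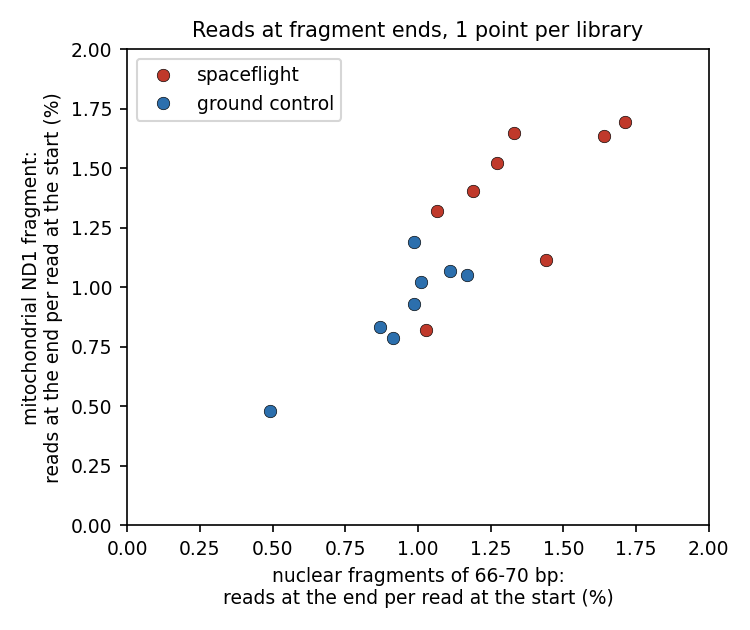
Each point is 1 library, with reads at the end as a percent of reads at the start for nuclear fragments of 66 to 70 bp (x axis) and for the mitochondrial ND1 fragment (y axis). Spaceflight libraries lie towards the upper right, with means of 1.33% and 1.39%, and ground control libraries towards the lower left, with means of 0.942% and 0.921%.

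With the end cytosine left out, the 16 remaining members gave 3344 methylated reads of 1046477, or 0.320% (exact 95% binomial interval 0.309% to 0.331%). The interval covers counting error only, and a read that covers several CpGs enters it several times. Single libraries lay between 0.273% and 0.399%, with interval limits between 0.235% and 0.486%. Within counting error, these values bound from above the unconverted share of the 16 cytosines alone in each library. The end cytosine was left out after its value had been seen, and whether its methylated calls were unconverted cytosines was not tested. With it, the bound over all members was 0.321% to 0.503% in single libraries. Without it, the percentages lay 3.50 points below those of nuclear cytosines within 200 bp of a gene start in the same libraries, on average. They were below them in 16 of 16 (exact test over sign changes, p = 3.05e-05). Of 13840 such nuclear cytosines with at least 1000 reads in all, the median was 0.401%, and 37.3% of them were at or below the mitochondrial level.

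Group differences in nuclear methylation ran the other way. Over all nuclear cytosines the percent was 38.0% ± 2.37 in spaceflight and 41.2% ± 1.25 in ground control libraries, and at gene starts it was 3.67% ± 0.248 in spaceflight and 3.98% ± 0.231 in ground control libraries (SD, n = 8 each, exact permutation tests, p = 0.00482 and 0.0228). Across libraries the gene-start percent and the mitochondrial percent without 3401 had a Pearson's r of -0.240 (permutation p = 0.374) and a Spearman's rank correlation of -0.182 (permutation p = 0.50, n = 16).

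The 14 members with more than 10000 reads lay between 0.205% and 0.394%. The lowest was the read start of ND1 on the plus strand, 3333, with 0.0684% to 0.245% in spaceflight (median 0.172%) and 0.0310% to 0.413% in ground control libraries (median 0.223%). The highest was 3395 on the plus strand, with 0.306% to 0.523% in spaceflight (median 0.381%) and 0.201% to 0.523% in ground control libraries (median 0.406%). Both ranges overlapped between the groups. The most-read cytosines, with medians of 5736 to 5797 reads per library, were the minus-strand members of COX1 at 6232, 6264, 6276 and 6390, and they had pooled percentages of 0.282% to 0.347%.

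Members inside a CCGG site, the read starts and the end, were compared with members between sites. The 8 CCGG members exceeded the 9 others by 0.134 points on average, in 15 of 16 libraries (exact test over sign changes, p = 6.10e-05). Without 3401 they lay below the others, by -0.0591 points on average, in 12 of 16 libraries (exact test over sign changes, p = 0.00366). That gap was -0.101 ± 0.0494 points in spaceflight and -0.0176 ± 0.0516 points in ground control libraries (SD, n = 8 each), and it differed between the groups (exact permutation test, p = 0.00746, adjusted 0.0234). In left eyes alone the difference was -0.0294 points (exact permutation test, p = 0.7, where 3 against 3 cannot go below 0.1), against -0.083 points in all libraries.

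In that gap the mean of the cytosines between sites was higher in spaceflight and that of the CCGG members lower. The cytosines between sites were 0.301% to 0.457% methylated in spaceflight (median 0.378%) and 0.298% to 0.351% in ground control libraries (median 0.317%). Of the spaceflight libraries, 5 of 8 lay above every ground control library. The means were 0.371% ± 0.0466 in spaceflight and 0.320% ± 0.0209 in ground control libraries (SD, n = 8 each), a difference of 0.0510 points (95% interval 0.0134 to 0.0898; exact permutation test, p = 0.0106, adjusted 0.0258). The CCGG members without 3401 were at 0.271% in spaceflight and 0.303% in ground control libraries (difference -0.0319 points, exact permutation test, p = 0.16). This split was compared between the groups after the value at 3401 had been seen.

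No member passed the test for single cytosines, a logistic model of the methylated share with group as its term and overdispersion, fitted on all 1375451 cytosines and adjusted over them by Benjamini-Hochberg. A call needed 10 points between the pooled percentages and an adjusted p no higher than 0.05. By that rule 0 of 17 members and 0.0% of all cytosines were called, where members below 1% in every library could not reach 10 points, and the lowest adjusted p of a member was 0.806 (logistic model, Benjamini-Hochberg). At an unadjusted p of 0.05 or under there was 1 member of 17 (5.88%), against 3.52% of all cytosines, of which 1.61% were higher and 1.91% lower in spaceflight. It was 3396 on the minus strand of ND1, with 0.0579% to 0.721% in spaceflight (median 0.445%) and 0.0668% to 0.370% in ground control libraries (median 0.278%), and it was higher in spaceflight by 0.159 points between the pooled percentages (unadjusted p = 0.0454). Its groups overlapped. Next came 3345 on the same strand, at 0.428% ± 0.102 in spaceflight and 0.288% ± 0.0674 in ground control libraries, with an unadjusted p of 0.0835.

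The sparse members could not be placed with that precision. At 5726 on the plus strand, with 13 to 171 reads per library and the fewest reads of a member in its shallowest library, 14 libraries had 0 methylated reads, which allows up to 1.75% to 23.1% by the depth of the library, and the others were M26 at 5.56% in spaceflight and M39 at 0.847% in ground control. At 6114 on the minus strand 5 of 2700 reads were methylated in all, with 11 libraries at 0, which allows up to 1.2% to 8.11%.

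The depth of the members followed their fragments. The ND1 read start at 3333 had 0.749 to 1.69 times the reads of the COX1 read start at 6275 in spaceflight (median 0.891) and 0.756 to 1.05 times in ground control libraries (median 0.805), with M23 in spaceflight as the highest. The means, 0.975 ± 0.306 in spaceflight and 0.839 ± 0.0956 in ground control libraries, did not differ beyond the spread (SD, n = 8 each, exact permutation test, p = 0.257). The strands of a fragment were not read equally. On COX1 fragment 2 the plus-strand start had 0.736 ± 0.0313 times the reads of the minus-strand start in spaceflight and 0.687 ± 0.0171 times in ground control libraries (SD, n = 8 each), and 7 of 8 spaceflight libraries lay above every ground control library (exact permutation test, p = 0.00155, adjusted 0.0219). On the ND1 fragment the ratio was 1.82 ± 0.169 in spaceflight and 1.98 ± 0.144 in ground control libraries (SD, n = 8 each, exact permutation test, p = 0.0584, and 0.00482 without M23 and 0.0424 without M32).

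COX1 fragment 1 was read from its minus strand alone. The minus-strand start at 6276 had 2201 to 16787 reads per library, and the plus-strand start at 6113 was listed in 1 library with 1 read. Nuclear DNA holds a copy of this stretch. The 667 bases of COX1 from 5725 to 6391 matched, with 18 mismatches and no gap, the reverse strand of chr2:22588584-22589250 in an intron of Myo3a, an identity of 97.3%. Over the 70 bases that follow the plus-strand start at 6113 the copy differed at 2 bases, and at 0 once every C was written as T in both sequences, which is how Bismark compares a read with the genome. At that step these 70 bases have the same letters in both places, whether or not their CpGs were methylated. The part of this in the missing plus-strand reads at 6113 was not tested. At the other COX1 read starts the copy differed at 1 or 2 of 70 bases after that change. For the ND1 fragment a search with exact stretches of 20 bases found no nuclear match. The stretches were compared before C was written as T, so a copy without such a stretch would have been missed.

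The nuclear copy was read as methylated at a level far above that of the mitochondrial original. Of the 8 COX1 members, 7 have a CpG at the same place in the copy. At 6264 on the minus strand the copy had 1396 of 1473 reads methylated, or 94.8%, against 0.347% of 112659 mitochondrial reads. At 6390 on the minus strand it had 96.5% of 1708 reads methylated, against 0.282% of 114611 mitochondrial reads. At 6275, 6276 and 6311 the copy was at 93.2%, 92.8% and 94.6%, so that the 5 cytosines read at depth in both places all gave the same picture.

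Over all 7 of its CpGs the copy exceeded the 8 COX1 members by 94.0 points on average (SD 1.30, range 91.5 to 96.2). It did so in 16 of 16 libraries (exact test over sign changes, p = 3.05e-05, the smallest possible). The 7 include 2 sparsely read in the copy, 5726 with 8 of 19 reads methylated and 6114 with 48 of 51. The copy was 94.3% ± 1.53 methylated in spaceflight and 94.3% ± 1.15 in ground control libraries (SD, n = 8 each, exact permutation test, p = 0.990). The COX1 members, which have this copy, were at 0.334% ± 0.0560 in spaceflight and 0.323% ± 0.0262 in ground control libraries (SD, n = 8 each, exact permutation test, p = 0.639). The ND1 members without 3401, for which no copy was found, were at 0.329% ± 0.0306 in spaceflight and 0.298% ± 0.0324 in ground control libraries (SD, n = 8 each, exact permutation test, p = 0.0626). That difference, 0.0315 points, passed 0.05 when M25, M29, M37 or M39 was left out (0.0355 to 0.0390 points). Within libraries COX1 and ND1 differed by 0.0149 points (SD 0.0462; exact test over sign changes, p = 0.220). These comparisons were added after the copy had been found and are outside the 22 that were adjusted together.

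**Figure D5:**
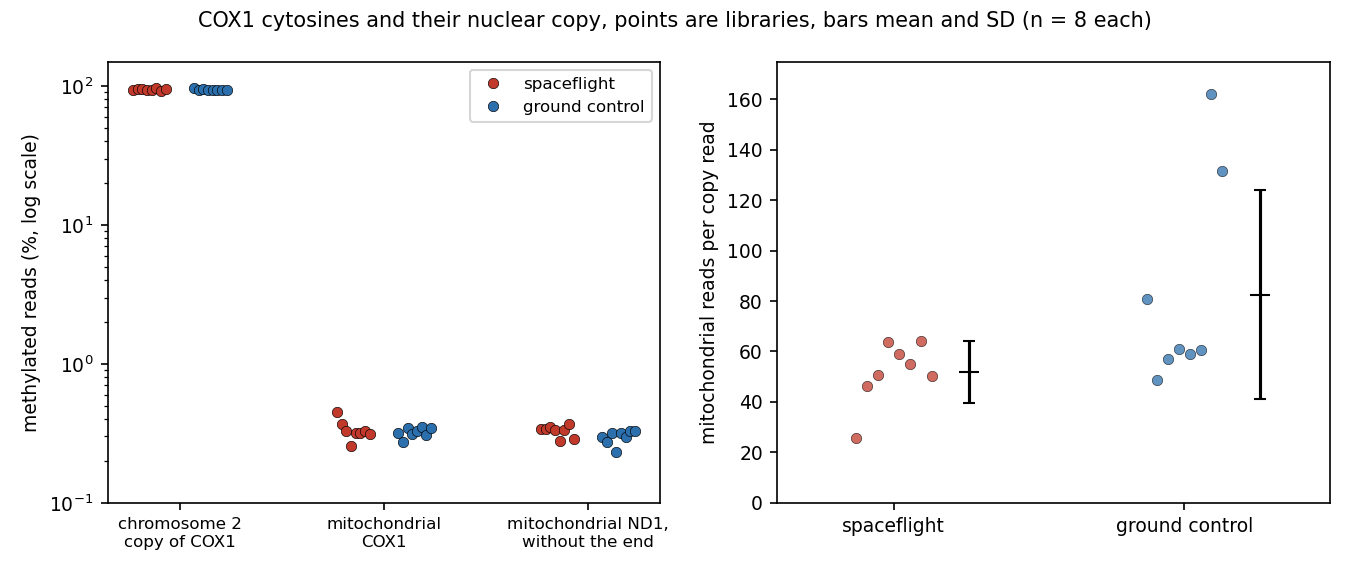
Left, percent of methylated reads per library (log axis) at the chromosome 2 copy of the COX1 members, at the COX1 members and at the ND1 members without the fragment end. Right, mitochondrial reads per read of the copy over 5 cytosines, with mean and SD (n = 8 each). The copy lies above 90% in every library and the mitochondrial values below 0.5%. M37 and M39 are the highest points on the right.

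The copy also gave a ratio of mitochondrial to nuclear reads on fragments of the same length and nearly the same sequence. How well it follows the amount of mitochondrial DNA was not tested. Over the 5 cytosines with at least 10 reads of the copy in every library there were 25.9 to 64.2 mitochondrial reads per read of the copy in spaceflight (median 52.9) and 48.6 to 162 in ground control libraries (median 60.8). M37, at 162, and M39, at 131, again stood apart. The means were 51.8 ± 12.3 in spaceflight and 82.6 ± 41.4 in ground control libraries (SD, n = 8 each, exact permutation test, p = 0.0406), and without M37 and M39 they were 51.8 and 61.2 (exact permutation test, p = 0.179).

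The expression table listed 24 mitochondrially encoded RNAs, the 2 ribosomal RNAs and 22 transfer RNAs. Messenger RNAs of the mitochondrial genome were not analysed here. Genes were called by limma where the fold was 1.2 or more, p no higher than 0.05 and the Benjamini-Hochberg adjusted p no higher than 0.3, on log2(FPKM + 0.1) of the genes at 1 FPKM or more in every library. Only 3 of the 24 passed that filter, and 0 were called by limma, as were 0.0% of all 12498 genes. At an unadjusted p of 0.05 or under there was 1 of 3, against 7.52% of all genes.

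Rnr2, the large ribosomal RNA, was at 4422 to 8359.9 FPKM in spaceflight (median 5395) and 4379.7 to 13082 FPKM in ground control libraries (median 7665), with overlapping groups. Its change was -0.54 on the log2(FPKM + 0.1) scale (SE 0.21; limma, unadjusted p = 0.0204, adjusted p = 0.609). Rnr1, the small ribosomal RNA, was at 2798 to 5039 FPKM in spaceflight (median 3682) and 3276 to 5327 FPKM in ground control libraries (median 4369), a change of -0.25 on that scale (SE 0.15; limma, adjusted p = 0.733). TrnM, the methionine transfer RNA, ranged over 16917 to 230940 FPKM in spaceflight (median 81740) and 76560 to 156559 FPKM in ground control libraries (median 104277), with a change of -0.84 (SE 0.58; limma, adjusted p = 0.759). Of the other 21 transfer RNAs 6 were listed at 0 in every library, and fragments this short are scaled by length, so that their FPKM were not compared further.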

How the data were processed

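RRBS libraries were prepared from 16 retinas. Per the labels and the study's methods, trimming by the authors used Trim Galore 0.4.5, and they removed duplicates by random tags, aligned to GRCm38 with Bismark and wrote call tables for methylKit. The deposited tables give a read count per CpG cytosine, strands apart. They also give the deposited percent of methylated reads with 2 decimals, from which methylated reads were recovered by rounding; at 10000 or more reads (9 cytosines each in M37 and M39) this may be off by 1 read. The authors made FPKM with TopHat2 and Cufflinks; 2 expression columns of no labelled library were not used, and an entry without a gene name, up to 0.388% of a library's FPKM, was left out.

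Members needed 10 reads in every library. The members, lists and tests were chosen with earlier results of these data known. Percentages are pooled over cytosines within a library. Groups were compared by exact two-sided permutation over 12870 splits (smallest p 0.000155), with intervals by inverting that test, and contrasts within libraries by exact sign changes (65536 patterns). Correlations used 100000 permutations, or all of them within a group. Single cytosines were tested by logistic regression with McCullagh-Nelder overdispersion, not taken below 1, and an F-test. RNA was compared with limma 3.58.1 in R 4.3.3; other steps used Python 3.11.15, NumPy 2.4.6 and SciPy 1.17.1. Both genome-wide tests were tested on simulated data.

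By the rule for named cytosines, the 5 most read, the 5 highest and 3 lowest in percent and the 3 smallest p values were named, beside all CCGG members. Annotation came from RefSeq for GRCm38, the build of the tables. The RNA library of M21 is ground control by its condition label and flight by its source name, and was taken as spaceflight; mouse numbers of 6 ground control RNA libraries differ between labels and supplement, and the labels were followed. Counts limit each percent, and intervals and floors (3 counts) cover counting error only. Separate mice are the replicates. Alternatives were a minimum of 20 reads or none, unweighted means, autosomal reads, single eyes, a pseudocount of 1, and leaving out each library.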

Additional observations from a re-analysis of the deposited data

Results flagged for a closer look

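Of 82 sets of values (1 measure in 1 group), 13 held a library whose gap to its nearest neighbour was large for the range of its group. For normally distributed values chance gives about 1 in 20. The sparse cytosines were at 0 in most libraries, and the sets share libraries and reads, so the count cannot be set against that rate. M31, a ground control, was such a library for 5 measures: nuclear gene starts at 3.48% methylated, reads at 3395 at 79.99% of those at 3386, nuclear end reads at 0.491% of start reads, nuclear ends at 78.75% methylated, and an ND1 to COX1 read ratio of 1.05. M23 in spaceflight had the highest such ratio, 1.69. At 3401 on the plus strand, M27 in spaceflight was at 83.3%, with 20 of 24 reads methylated. M27 also had 4 reads, 0 of them methylated, at 3410 beyond the fragment end, and whether the same reads cover 3401 was not tested. At 3402 on the minus strand, M33 in ground control was at 0.486%. The sparse cytosines gave the rest of the methylation values: at 5726 M26 in spaceflight was at 5.56% and M39 in ground control at 0.847%, and at 6114 M21 in spaceflight was at 4.17% and M33 in ground control at 0.552%, each from 1 to 4 methylated reads. In RNA, Rnr2 of M26 in spaceflight was at 8359.9 FPKM. No difference between the right-eye and the left-eye effect of flight passed an unadjusted p of 0.05 in permutation tests of 7 mitochondrial and end measures (lowest p = 0.157).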

How the results depend on the processing

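No paired analysis was possible because the groups share no mouse numbers. The difference in mitochondrial read share, -0.0465 points, passed p of 0.05 with other denominators and on the log2 scale, but not without the most-read cytosine (-0.0407, exact permutation test, p = 0.0503), in right eyes (-0.0287) or left eyes (-0.0762), or without M37 and M39 (-0.0127, chosen after seeing the data); leaving out each library gave -0.0535 to -0.0309, and 11 of 16 such values missed it (each spaceflight library, M31, M37 or M39 left out). The difference in percent methylated passed p of 0.05 without any 1 library (0.0513 to 0.0708 over both strands, 0.0796 to 0.102 on the plus strand), but not with each cytosine counted equally (0.136 over both strands, 0.190 on the plus strand), in right eyes (0.0390 and 0.0589) or left eyes (0.0999 and 0.152), or without 3401 (0.0184 and 0.0108), the last also chosen after seeing the data. With 3 against 3 left eyes no exact p can go below 0.1. On the minus strand, having no read minimum let in 3334 and gave 0.0759 (exact permutation test, p = 0.0157). The strand difference turned to -0.00203 without 3401 and was 0.0194 over CpGs read on both strands without that of 3401, and the CCGG difference turned to -0.0591 without it; leaving out each library gave 0.165 to 0.183 and 0.120 to 0.145. Leaving out each library changed no side of 0.05 for the group differences in the share of reads at the fragment ends, in read extent and in the COX1 strand ratio. The ND1 strand ratio gave -0.211 to -0.121. The difference of the cytosines between sites kept its side of 0.05 except in left eyes. Mitochondrial reads per read of the copy ranged over -35.6 to -19.4 (difference), and missed 0.05 without M21, M22, M23, M25, M26, M29, M31, M37 or M39. The calls of 0 members and 0 RNAs stood under every alternative run. For members below 1% in every library this says little, since percentages that low cannot differ by 10 points. At 3401, which could, the pooled percentages differed by 2.64 points in the main test. At an unadjusted p the members counted 0 to 3. Counting limits the sparse members and 3401, with 24 to 107 reads a library, and FPKM carry no depth.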
